A study of Mus musculus with 49 samples.

Results

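Mouse embryonic stem (ES) cells were compared after 8 h of p53 activation and at 0 h, with Trim24 present at both times, over all genes measured by RNA-seq. The comparison takes the 3 libraries labelled as p53-activated for 8 h and the 3 labelled as uninduced, both without the Trim24 degrader, which are 6 of the 27 libraries of the time course table and of the 49 of the series. Of 20489 protein-coding genes in the table, 16497 lay far enough above its floor in at least 3 of the 6 libraries to be tested. At 8 h the cells had received 1 µM doxorubicin for 8 h, and at 0 h cells of the same line had received none. The line was derived from TC-1 ES cells (129S6/SvEvTac) and carries FKBP12(F36V)-V5, a tag for induced degradation by dTAG13, at the C terminus of Trim24 on both alleles. It is a picked clone, so the values describe that clone, and neither group received dTAG13. The other libraries of the table, at 2, 4 and 12 h or with Trim24 degraded, are used here only to place 8 h within the time course. None of the libraries used here came from cells that lack p53, so effects that need p53 and other effects of doxorubicin cannot be told apart. Per the study's methods, doxorubicin was given in fresh medium. The table holds no untreated library at 8 h, so effects of fresh medium and of time in culture cannot be told apart from those of doxorubicin either.

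p53 is a transcription factor that is kept low in unstressed cells by Mdm2, an E3 ubiquitin ligase that marks it for degradation and is itself a p53 target. Doxorubicin binds DNA and traps topoisomerase II, and the DNA breaks that follow stabilize p53, which then binds response elements made of paired half-sites and activates genes of cell cycle arrest, cell death, DNA repair and metabolism. ES cells divide rapidly with a short G1 phase and depend on a network of pluripotency factors, and in these cells p53 is also known for its effect on pluripotency and differentiation genes. Trim24 is an E3 ubiquitin ligase of the TIF1 family that binds p53 and chromatin.

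The 8 h libraries held 16684808 to 17425271 reads over genes and the 0 h libraries 18426252 to 21852262. The authors' TMM normalization gave factors of 1.12 to 1.22 at 8 h and 0.927 to 0.933 at 0 h, so levels in CPM (reads per gene scaled to a common library size) are relative to the composition of each library and carry no measure of RNA per cell. In bulk samples, fewer cells of a type and less RNA per cell cannot be told apart. The 10 core pluripotency markers used to check the labelled cell type were all detected, and their summed level was 1524 to 1659 CPM at 8 h and 4677 to 4718 CPM at 0 h. Reads fell on 18263, 19489 and 18567 genes at 8 h and on 16820, 16899 and 16724 at 0 h, and replicate 2 at 8 h therefore held the most genes with reads. Olfactory receptor genes, which ES cells are not known to use, had summed levels of 131, 212 and 144 CPM in the 8 h libraries and 74.8, 80.6 and 76.0 CPM in the 0 h libraries, and reads fell on 530, 958 and 617 of them at 8 h against 176, 183 and 175 at 0 h. The part of such thinly spread reads in the changes of genes at low levels was not tested.

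Many genes were called changed after 8 h, in both directions. A gene was called when limma on log2 CPM gave an adjusted p below 0.01 and a difference of 0.75 or more on the log2 scale. By this rule 7468 of 16497 genes (45.3%) were called, of which 4452 rose (27%) and 3016 fell (18.3%). The median log2 fold change was 1.5 among genes that rose and −1.13 among genes that fell, against 0.02 over all genes tested, whose quartiles were −0.56 and 0.83. At least 4-fold differences were found for 1433 genes that rose and 330 that fell, and at least 16-fold differences for 184 and 16. The 3 libraries of a time did not overlap with those of the other for 13336 genes (80.8%). The p-values measure only the spread between these 3 and 3 libraries, and limma shares its estimate of that spread across genes. The split into rises and falls depended on the scaling: 59.6% of calls were rises with TMM, 46.9% after quantile normalization (3228 rose, 3656 fell), 45.9% after median centring (3622 and 4277) and 75.8% when libraries were scaled by their total reads (5442 and 1733). These scalings put the median of all genes at −0.11, −0.19 and 0.29 on the log2 scale, and list medians are to be read against the value of 0.02 under TMM, and list counts against the 27% and 18.3% of all genes tested that rose and fell. No gene was called in the opposite direction under any of the 18 alternatives tried.

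Which genes rose and which fell followed their level at 0 h. Genes that rose had a median of 1.35 CPM at 0 h and genes that fell a median of 55.8 CPM, against 15.3 CPM over all genes tested. Of the 2703 tested genes under 0.5 CPM at 0 h, 57.8% rose and 0.407% fell, and a gene this low could enter the test almost only through its 8 h level. Of the 983 genes between 200 and 500 CPM, 11 rose and 443 fell, and of the 295 genes above 500 CPM none was called higher and 132 were called lower, and their median difference was −0.68. These 295 genes together held 201030 CPM at 8 h and 295199 CPM at 0 h, and the 2703 lowest genes held 4443 CPM at 8 h and 503 CPM at 0 h. The classes use the same 0 h libraries as the fold changes, and CPM is not divided by gene length. Of the 4452 genes that rose, 2030 lay under 1 CPM at 0 h, and 144 had no read in any 0 h library. Without replicate 2 at 8 h, the library with the most genes with reads, 1924 genes under 1 CPM rose, and 1885 of the 2030 (92.9%) were still called.

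**Figure D1:**
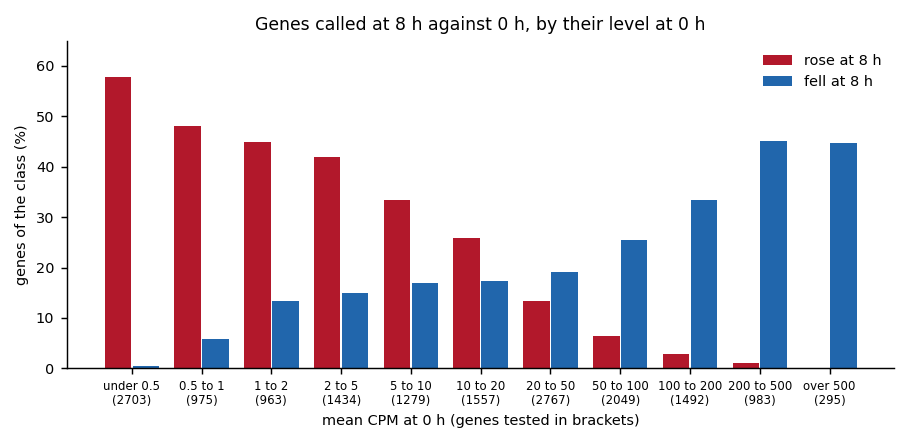
Share of tested genes called at 8 h against 0 h (y axis, percent), in classes of mean level at 0 h (x axis, CPM, with the genes tested in brackets). Red bars are genes that rose and blue bars genes that fell: the share that rose is 57.8% in the lowest class and 0 in the highest, where 44.7% fell.

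The direct regulators of p53 moved in both directions. Mdm2 (chr10:117688875-117710758, minus strand) stood at 966, 913 and 962 CPM in the 8 h libraries and at 186, 177 and 180.3 CPM in the 0 h libraries. Every 8 h library lay above every 0 h library, and the log2 fold change was 2.39 ± 0.060 (SE). Ccng1, cyclin G1, which recruits a phosphatase to Mdm2, stood at 1741, 1566 and 1635 CPM at 8 h and 504, 449 and 494 CPM at 0 h (1.77 ± 0.057). Trp73, the p53 relative p73, stood at 73.3, 68.3 and 81.2 CPM at 8 h and 4.54, 4.42 and 4.85 CPM at 0 h (3.91 ± 0.094), with no overlap between the groups in either gene. Trp53 itself (chr11:69580359-69591873, plus strand) moved the other way, at 141, 131 and 142 CPM at 8 h and 278, 309 and 289 CPM at 0 h. Its groups did not overlap, and its log2 fold change of −1.08 ± 0.064 passed the threshold under TMM, total-read scaling and median centring but not after quantile normalization. Trim24 (chr6:37870811-37966296, plus strand) was lower as well, at 72.00, 61.9 and 67.6 CPM at 8 h and 213, 207 and 212 CPM at 0 h, without overlap (−1.65 ± 0.068). Of the 11 tested genes in the list of p53 and its regulators, 6 rose and 2 fell. The other rises were Ppm1d (1.29), a phosphatase that turns off damage signalling, Siah1a (0.88), a ubiquitin ligase, and Trp63 (1.56), p63, at 0.855, 1.13 and 0.505 CPM at 8 h and 0.0498, 0 and 0.0584 CPM at 0 h. With so few reads of Trp63 at 0 h, its fitted change depends on the prior count. Mdm4, the inhibitory partner of Mdm2, had 308 ± 26.9 CPM at 8 h and 382 ± 10.03 CPM at 0 h (SD, n = 3 each) and did not reach the fold threshold (−0.31).

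**Figure D2:**
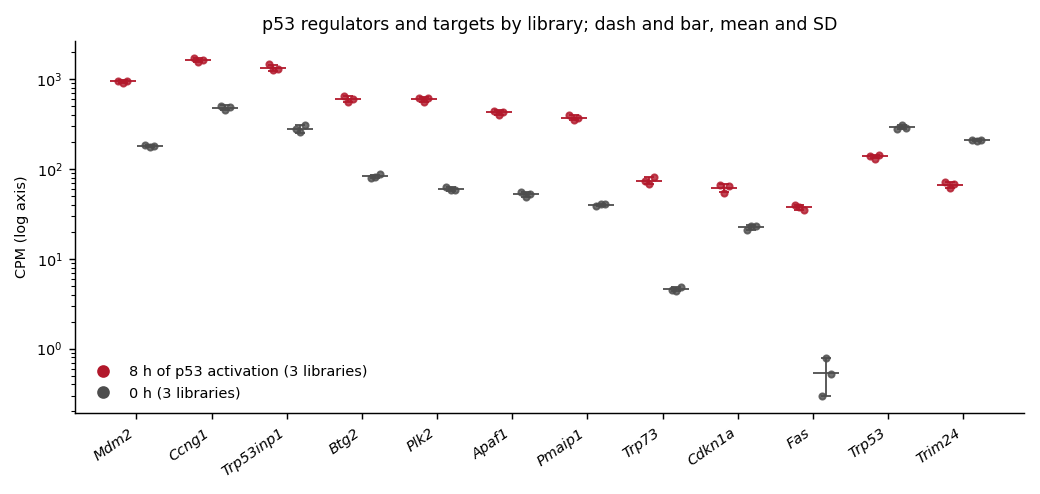
Level of 12 regulators and targets of p53 in each library (y axis, CPM on a log axis), with red points for the 3 libraries at 8 h and grey points for the 3 at 0 h, and a dash and bar for the mean and SD of each group. For each gene the groups are apart: 10 genes are higher at 8 h, and Trp53 and Trim24 are lower.

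A letter search of promoters was made to show what p53 elements near some of these genes look like. The 250 bases before each RefSeq start in the promoter set (GRCm38.p6) were searched on both strands for the p53 response element. The element was taken as 2 half-sites with a spacer of 0 or 1 base and at most 2 mismatches. A gene can have several starts, and a printed window need not lie at its outermost one. The window of Trp73 lies inside the gene, which spans chr4:154056253-154140208. Of all 32851 promoters, which are not limited to tested genes, 181 (0.551%) held a match. Only 78.9% of tested genes had a promoter sequence, so the share with a match was not compared between genes that rose and others. A match was found for 36 genes that rose. The 6 of them with the largest increase, each with 2 mismatches, are printed here for the size of their change. Sptbn4, the only risen gene whose element had 0 mismatches, and Ccng1 and Cdkn1a, with 1 mismatch each, are printed for their match, and Calhm2 was the other risen gene with 1. Capitals mark the element, and all are read 5′ to 3′ along the gene's strand. The printed window of Cdkn1a is chr17:29090888-29090978 on the plus strand, that of Ccng1 chr11:40755422-40755521 on the minus strand, that of Trp73 chr4:154097180-154097279 on the minus strand and that of Gpr132 chr12:112861040-112861139 on the minus strand. The window of Sptbn4 is chr7:27396199-27396293 on the minus strand. The window of Astl is chr2:127338395-127338494 on the plus strand, that of Avil chr10:127000596-127000696 on the plus strand, that of Mst1 chr9:108080314-108080413 on the plus strand and that of Ankrd42 chr7:92637266-92637365 on the minus strand.
Cdkn1a: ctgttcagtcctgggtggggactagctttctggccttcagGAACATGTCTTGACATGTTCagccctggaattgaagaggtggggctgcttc
Ccng1: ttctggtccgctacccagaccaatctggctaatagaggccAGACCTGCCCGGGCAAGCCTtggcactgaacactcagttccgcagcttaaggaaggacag
Sptbn4: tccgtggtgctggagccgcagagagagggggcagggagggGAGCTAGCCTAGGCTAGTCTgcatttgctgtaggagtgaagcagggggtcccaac
Trp73: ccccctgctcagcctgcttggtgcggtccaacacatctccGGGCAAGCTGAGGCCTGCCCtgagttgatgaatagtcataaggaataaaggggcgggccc
Gpr132: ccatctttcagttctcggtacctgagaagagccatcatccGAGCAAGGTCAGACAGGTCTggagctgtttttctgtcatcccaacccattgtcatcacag
Astl: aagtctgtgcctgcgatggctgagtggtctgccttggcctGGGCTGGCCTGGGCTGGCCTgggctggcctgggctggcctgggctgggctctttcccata
Avil: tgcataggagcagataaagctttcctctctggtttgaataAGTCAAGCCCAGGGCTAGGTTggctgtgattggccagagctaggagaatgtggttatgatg
Mst1: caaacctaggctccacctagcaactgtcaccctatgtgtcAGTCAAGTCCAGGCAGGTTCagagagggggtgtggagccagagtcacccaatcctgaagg
Ankrd42: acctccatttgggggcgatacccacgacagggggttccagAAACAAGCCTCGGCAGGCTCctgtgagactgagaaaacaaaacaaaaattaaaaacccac

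The element of Cdkn1a ran from 51 to 32 bases before the RefSeq start searched and that of Ccng1 from 195 to 176. Sptbn4, a beta spectrin, stood at 101, 113 and 124 CPM at 8 h and 38.7, 42.5 and 32.2 CPM at 0 h (1.57 ± 0.080). Gpr132, a G protein-coupled receptor, stood at 13.1, 12.4 and 15.8 CPM at 8 h and 0.0997, 0.442 and 0.175 CPM at 0 h (4.601 ± 0.17). Astl, a metalloprotease known from oocytes, stood at 8.55, 10.2 and 11.2 CPM at 8 h and 0.199, 0.147 and 0.0584 CPM at 0 h (4.39 ± 0.18), and its element lies within a repeated stretch. Both genes were near the floor in every 0 h library. Avil, advillin, a protein that binds actin (4.18), Mst1, macrophage-stimulating protein (3.96), and Ankrd42 (3.85) were also higher in every 8 h library than in any 0 h library. A match is a description of letters, and binding was not measured in these libraries.

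Genes of cell cycle arrest and cell death under p53 mostly rose. Cdkn1a (chr17:29090976-29100727, plus strand), which encodes the CDK inhibitor p21, stood at 65.9, 54.4 and 63.98 CPM at 8 h and 20.9, 23.4 and 23.2 CPM at 0 h (1.43 ± 0.081). Plk2, a stress-induced kinase, stood at 621, 558 and 611 CPM at 8 h and 63.6, 58.8 and 58.5 CPM at 0 h (3.298 ± 0.065), and Btg2, an antiproliferative factor, at 649, 560.5 and 610.1 CPM and 79.1, 82.6 and 87.1 CPM (2.86 ± 0.064). All 3 genes were without overlap between the groups, and the change of Cdkn1a was the smallest of them. Of the 9 arrest genes tested, 5 rose and none fell, and the median was 0.94. Rprm, reprimo, an inhibitor of G2 progression (2.39), and Sfn, 14-3-3 sigma (0.94), were the other rises. Sfn lost its call after median centring. Gadd45a had 14.7 ± 0.602 CPM at 8 h and 10.3 ± 0.341 CPM at 0 h, a log2 difference of 0.498 that was under the fold threshold.

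Among the cell death genes, 12 of 15 rose and none fell, with a median of 1.17. The number that rose was 9 after median centring and 12 after quantile normalization. Fas, the death receptor, stood at 39.3, 37.4 and 35.4 CPM at 8 h and 0.299, 0.785 and 0.525 CPM at 0 h (5.44 ± 0.14), the largest increase of the list. Pmaip1, the BH3-only protein Noxa, stood at 404, 352 and 367 CPM at 8 h and 39.03, 40.9 and 40.8 CPM at 0 h (3.205 ± 0.067). Apaf1, the core of the apoptosome, stood at 448, 400.3 and 432 CPM at 8 h and 55.5, 48.5 and 53.4 CPM at 0 h (3.02 ± 0.066). No 8 h library of these genes reached down to a 0 h library. Trp53inp1 (2.25) and Perp, a desmosomal protein of p53-dependent death (2.25), changed by about the same amount, and Bbc3, the BH3-only protein Puma, by 1.22. The 3 members not called were Bax, Aen and Ei24, and Bax, a pore-forming protein of mitochondria, had 124 ± 10.3 CPM at 8 h and 131 ± 7.58 CPM at 0 h (−0.075), with overlapping groups. Outside the p53 list, 2 of 12 other BCL2 family genes rose, Bik (1.97) and Bcl2 (1.09), and 3 fell, Bcl2l1 (−1.52), Hrk (−1.23) and Bid (−0.87). Bcl2l1 encodes BCL-XL, which protects cells from death, and stood at 21.6, 18.95 and 21.4 CPM at 8 h and 61.7, 61.9 and 56.6 CPM at 0 h. Bid shares exon sequence with an antisense coding gene, and no use of strand in the counting is described, so their reads cannot be told apart, and its call was lost with total-read scaling. Bcl2 was at 1.37 ± 0.359 CPM at 8 h and 0.447 ± 0.0991 CPM at 0 h and lost its call after quantile normalization.

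The repair and metabolism lists were mixed. In the repair list 3 of 8 genes rose and 1 fell. Ercc5, an endonuclease of nucleotide excision repair (2.173), Rrm2b, the p53-induced ribonucleotide reductase subunit (1.81), and Polk, a translesion polymerase (1.201), were the rises. The fall was Pcna, the sliding clamp of DNA replication, at 179, 154 and 149.7 CPM at 8 h and 346, 305 and 385 CPM at 0 h (−1.099 ± 0.070). Its call was lost after quantile normalization. Of 11 metabolism genes 5 rose, led by Ddit4, the mTORC1 inhibitor REDD1, at 132, 125 and 146 CPM at 8 h and 14.6, 16.3 and 14.4 CPM at 0 h (3.12 ± 0.078). Aldh4a1 (2.102), Fdxr (1.86), Cpt1c (1.77) and Dram1 (1.73), which are enzymes except for the autophagy regulator Dram1, were the others, and Tigar, which lowers glycolytic flux, fell (−0.91).

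The 20 largest increases among genes of at least 5 CPM at 8 h included keratins, Wnt ligands and a copy of Dux, and all 20 were below 3 CPM in every 0 h library. They were taken only from called genes whose groups did not overlap, so their lack of overlap was set by that choice. Sbsn, suprabasin, a protein of the epidermis, stood at 70.7, 64.9 and 75.3 CPM at 8 h and 0.349, 0.589 and 0.292 CPM at 0 h (6.54 ± 0.13). Krt5, a keratin of basal epithelial cells, stood at 40.7, 40.9 and 46.6 CPM at 8 h and 0.399, 0.0981 and 0.234 CPM at 0 h (6.19 ± 0.15). Every 0 h library of these genes was below 1 CPM and every 8 h library above 40 CPM. Krt15, another basal keratin (6.32), and Bnc1, basonuclin, a zinc finger protein of basal keratinocytes (5.71), are known from the same tissue. Cbln2, a synaptic organizer (6.51), Amer2, a membrane adaptor of the Wnt pathway (6.36), and Eef1a2, the elongation factor of muscle and neurons (5.904), are known from other tissues. Art4, an ADP-ribosyltransferase homologue (6.15), Rgs14, a regulator of G protein signalling (5.903), Dusp13, a phosphatase (5.87), Apol8, of the apolipoprotein L family (5.81), and Serpinf1, a secreted serpin (5.67), followed. Zfp648, a zinc finger gene (5.87), Matn4, a matrix protein (5.502), and P2rx6, a subunit of ATP-gated channels (5.46), were close to 0 reads at 0 h, and their fitted changes depend on the prior count. Matn4 and P2rx6 also share exon sequence with antisense coding genes.

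Duxf3 (chr10:58229979-58232675, minus strand), a copy of Dux, which encodes a transcription factor of the early mouse embryo, was among the 20, at 48.00, 48.6 and 55.95 CPM at 8 h and 0.498, 0.491 and 0.642 CPM at 0 h (5.83 ± 0.13). Its neighbour AW822073 (chr10:58222972-58224930, minus strand) stood at 39.8, 44.2 and 50.4 CPM at 8 h and 0.449, 0.687 and 0.350 CPM at 0 h (5.74 ± 0.14). Both lie in a region of near-identical copies, and a read with several matches was placed at random, so the value belongs to the group of copies rather than to either gene.

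**Figure D3:**
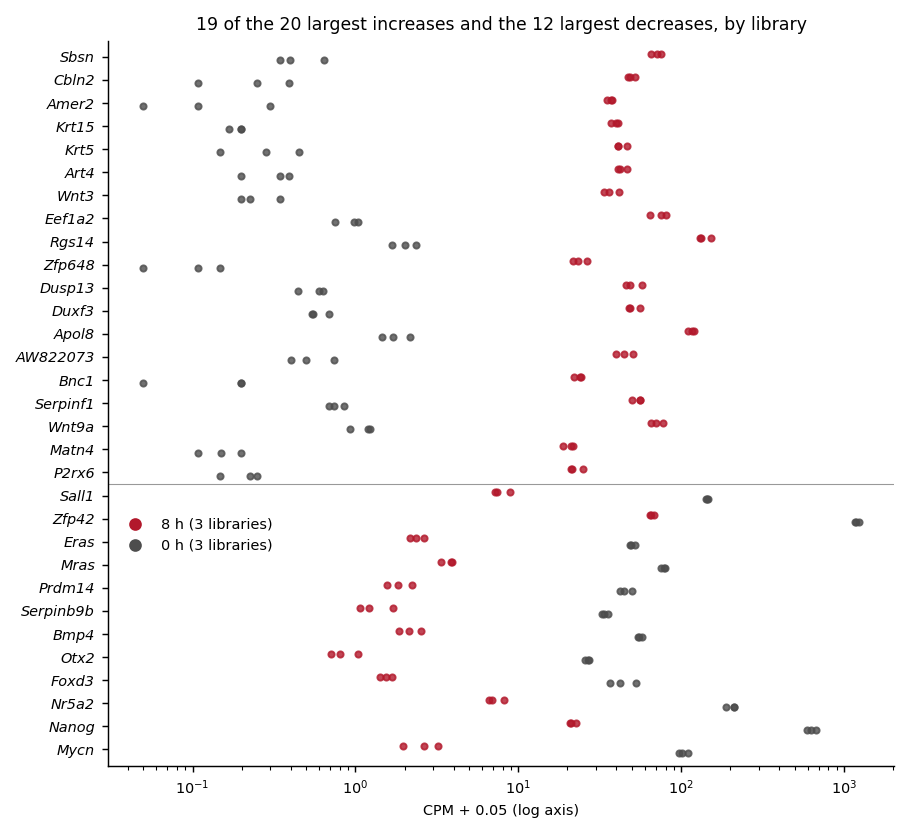
Level in each library (x axis, CPM + 0.05 on a log axis) of 19 of the 20 genes with the largest increase and, below the line, the 12 with the largest decrease, with red points for 8 h and grey points for 0 h (3 libraries each). The upper 19 are below 3 CPM in every 0 h library and above 15 CPM in every 8 h library, and the lower 12 show the reverse order of colours. All were chosen from called genes whose groups did not overlap.

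The 12 largest decreases included several transcription factors of the pluripotency network. Nanog (chr6:122707489-122714633, plus strand), a central pluripotency factor, stood at 22.6, 20.6 and 20.8 CPM at 8 h and 626, 588 and 669 CPM at 0 h (−4.85 ± 0.068). Zfp42, the naive marker Rex1, stood at 68.04, 64.3 and 65.5 CPM at 8 h and 1225, 1179.8 and 1168 CPM at 0 h (−4.17 ± 0.062). Nr5a2, a nuclear receptor that can activate Pou5f1, stood at 6.57, 8.16 and 6.81 CPM at 8 h and 210.2, 189 and 209 CPM at 0 h (−4.76 ± 0.081). Each of these genes was more than 10-fold lower in every 8 h library than in any 0 h library. Prdm14 (−4.402), Sall1 (−4.16), the Ras proteins Mras (−4.27) and Eras (−4.22), of which Eras is known from ES cells and shares exon sequence with an antisense gene, and the serpin Serpinb9b (−4.41) were also among the 12, with Mycn, Otx2, Foxd3 and Bmp4. Of 12 naive pluripotency genes 11 fell, with a median of −2.22, and their summed level was 516 ± 26.9 CPM at 8 h and 3165 ± 50.4 CPM at 0 h (SD, n = 3 each). After Zfp42, Nr5a2 and Prdm14, Nr0b1 (−3.53) and Esrrb (−3.13), which sustain the naive state, were the next largest, and Klf5 was not called (−0.58). Of 10 core pluripotency genes 8 fell, with a median of −2.13. Lin28a, an RNA-binding protein that blocks let-7 processing (−3.34), Tdgf1, the Nodal co-receptor Cripto (−3.19), Sall4 (−3.05) and Sox2 (−2.53) were the largest after Nanog. Pou5f1, the partner of Sox2, stood at 639.6, 618 and 695 CPM at 8 h and 976, 1042 and 944 CPM at 0 h. Its groups did not overlap, but the log2 difference of −0.601 ± 0.058 was under the fold threshold, as was that of Dppa5a (−0.24).

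Markers of the later, formative and primed states were mostly lower as well. In that list 6 of 10 genes fell and 1 rose, with a median of −1.14. Otx2, which drives exit from the naive state, stood at 0.748, 0.990 and 0.656 CPM at 8 h and 26.9, 26.9 and 25.6 CPM at 0 h (−4.55 ± 0.14). Foxd3, a transcription factor, stood at 1.497, 1.37 and 1.61 CPM at 8 h and 41.97, 52.3 and 36.5 CPM at 0 h (−4.56 ± 0.12). Zic2 (−3.63), Etv5 (−2.23) and both Dnmt3a (−1.17) and Dnmt3b (−1.11), the enzymes of new DNA methylation, fell as well. The rise was Pou3f1, a factor of the primed state, at 19.03, 20.7 and 21.9 CPM at 8 h and 6.73, 7.95 and 7.24 CPM at 0 h (1.45 ± 0.11).

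Signalling genes around the pluripotency network were lower too. Of 9 FGF and ERK feedback genes 7 fell, with a median of −1.31. Spry4, an inhibitor of receptor tyrosine kinase signalling, stood at 8.07, 7.17 and 8.07 CPM at 8 h and 131, 156 and 141 CPM at 0 h (−4.13 ± 0.083), and Spry2 (−2.802) and the ligand Fgf15 (−3.18) followed. In the BMP and Nodal list 6 of 12 fell and 2 rose. The ligand Bmp4 stood at 2.08, 1.79 and 2.47 CPM at 8 h and 55.03, 57.2 and 54.3 CPM at 0 h (−4.51 ± 0.11), with exon sequence shared with an antisense coding gene. Lefty2 (−2.903) and Lefty1 (−1.62), which inhibit Nodal, the Nodal-related ligand Gdf3 (−2.798) and the BMP targets Id3 (−2.78) and Id1 (−1.45) were the other falls. Nodal itself rose (1.31, 293 ± 9.86 CPM at 8 h and 118 ± 4.05 CPM at 0 h), as did Id2 (1.02). Mycn, a MYC family gene that drives growth in ES cells, had the largest decrease of the 12, at 3.15, 2.59 and 1.92 CPM at 8 h and 101, 110.0 and 96.6 CPM at 0 h (−5.16 ± 0.11). Myc stood at 13.95, 14.2 and 14.98 CPM at 8 h and 71.2, 77.5 and 70.1 CPM at 0 h (−2.31 ± 0.082), and their shared partner Max fell by less (−1.46). Mxd4 (3.11) and Mxd1 (2.81), which compete with MYC proteins for Max, rose, and of the 11 genes of the network 6 fell and 2 rose.

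**Figure D4:**
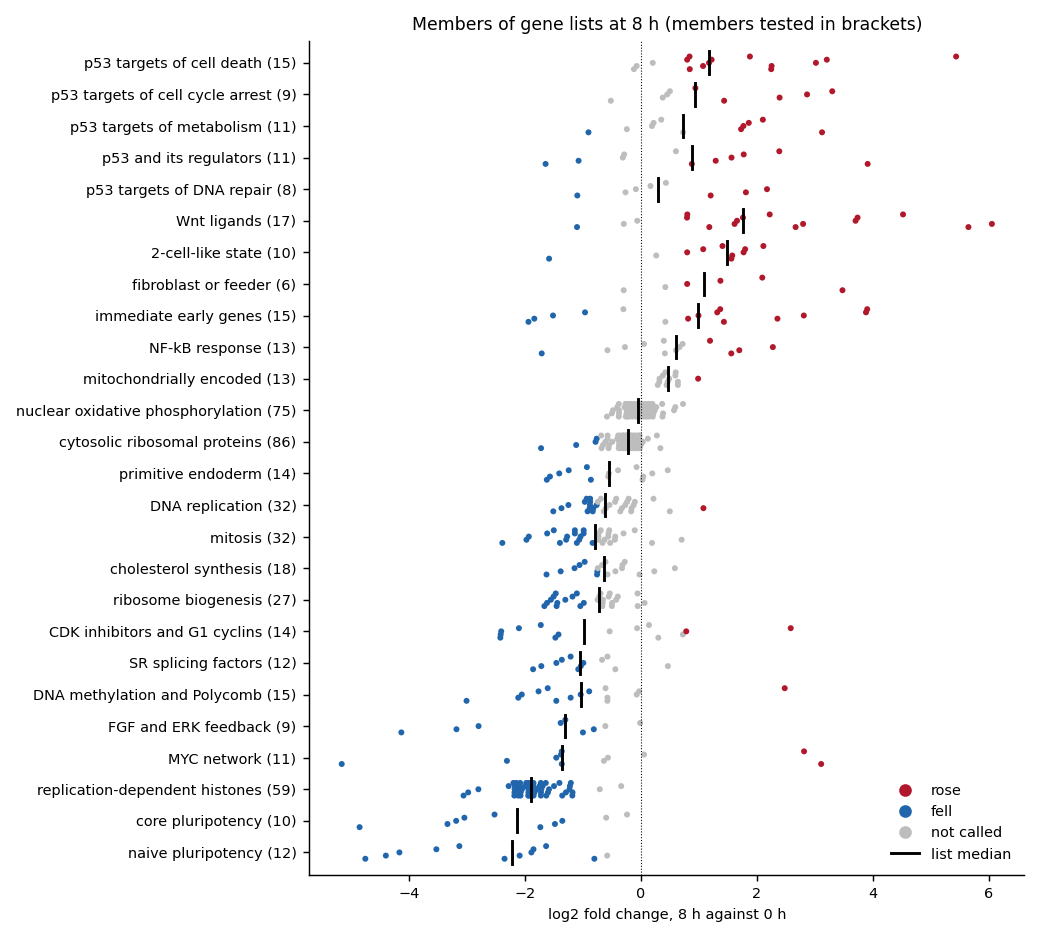
Log2 fold change at 8 h against 0 h (x axis) of every tested member of 26 gene lists (rows, with the members tested in brackets), in red where a gene rose, blue where it fell and grey where it was not called, with a bar for the list median. Medians run from −2.22 for naive pluripotency to 1.76 for Wnt ligands, and those of cytosolic ribosomal proteins and of nuclear oxidative phosphorylation, both near 0, are above 0 after quantile normalization and total-read scaling.

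Most Wnt ligands were higher. Of 17 ligands tested 14 rose and 1 fell, with a median of 1.76, and the summed level was 214 ± 12.6 CPM at 8 h and 28.8 ± 2.89 CPM at 0 h. Of all tested genes under 0.5 CPM and at 1 to 2 CPM at 0 h, 57.8% and 45.0% rose, beside 82.4% of the ligands. Wnt3, a ligand of the primitive streak, stood at 36.1, 33.7 and 41.1 CPM at 8 h and 0.150, 0.294 and 0.175 CPM at 0 h (6.05 ± 0.15). Wnt9a stood at 65.5, 70.1 and 76.9 CPM at 8 h and 1.15, 1.18 and 0.876 CPM at 0 h (5.65 ± 0.12). Neither ligand had a 0 h library above 2 CPM or an 8 h library below 30 CPM. Wnt8b (4.52), Wnt4 (3.73) and Wnt9b (3.701) were the next largest, and Wnt9b had reads in only 1 of the 0 h libraries. After quantile normalization 11 ligands rose and 3 fell. Wnt5b fell (−1.104), and Wnt5a (−0.065) and Wnt16 (−0.297) were not called. Of 19 receptors and feedback targets 6 rose and 5 fell, shares of 31.6% and 26.3% beside 27% and 18.3% over all genes tested. Fzd1, a receptor, stood at 12.2, 12.7 and 12.9 CPM at 8 h and 0.748, 0.736 and 0.409 CPM at 0 h (3.73 ± 0.16). Among targets that Wnt signalling switches on as its own brakes, Nkd1 (2.65), Nkd2 (1.35) and Rnf43 (2.33) rose, while Axin2 fell (−1.45) and stood at 6.895, 7.31 and 8.63 CPM at 8 h and 21.2, 22.6 and 20.1 CPM at 0 h.

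Immediate early genes, which respond to signals within minutes, rose in 9 of 15 cases and fell in 4, with a median of 0.99. After quantile normalization 6 rose and 4 fell, with a median of 0.43. Fos stood at 38.8, 39.9 and 43.1 CPM at 8 h and 1.89, 2.55 and 2.92 CPM at 0 h (3.88 ± 0.12), and its partner Jun at 45.4, 38.8 and 42.99 CPM and 8.18, 8.09 and 7.71 CPM (2.35 ± 0.095). Both were apart in every library. Atf3, a stress factor of the same family, rose by 2.81, and so did Fosl1 by 3.902, which shares exon sequence with an antisense gene. The 4 that fell were Klf6 (−1.94), Ier2 (−1.84), Ier3 (−1.52) and Jund (−0.97).

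Lineage markers showed no common direction. In the trophoblast list 4 of 10 rose and 5 fell, and the list median of −0.101 was above 0 with total-read scaling, with stricter filters on low values and without replicate 1 at 8 h. After quantile normalization 2 rose and 5 fell, with a median of −0.504. Gcm1, a factor of the placental syncytium, stood at 15.9, 15.4 and 17.8 CPM at 8 h and 0.349, 0.442 and 0.759 CPM at 0 h (4.28 ± 0.16), and Krt7, a keratin of simple epithelia, at 42.4, 43.9 and 47.3 CPM and 2.04, 1.91 and 2.22 CPM (4.22 ± 0.11). Tead4 (−2.21) and Tfap2c (−1.64), which act early in trophoblast specification, were lower. In the mesoderm list 4 of 11 rose, Mesp1 (3.504), Hand1 (2.27), T (1.23) and Mixl1 (0.93), and 3 fell, Evx1 (−1.75), Kdr (−1.699) and Eomes (−0.93), and the median of −0.18 was above 0 with total-read scaling and without replicate 2 at 8 h. After quantile normalization 2 rose and 6 fell, with a median of −0.99. Of 14 primitive endoderm genes 6 fell and none rose, among them Gata4 (−1.63) and Sox17 (−1.57), both transcription factors at 3.097 ± 0.436 and 1.78 ± 0.559 CPM at 8 h against 10.3 ± 0.945 and 5.85 ± 0.127 CPM at 0 h. Of 7 neural genes 2 rose, Neurod1 (2.19) and Sox1 (1.63), and 3 fell, Pax6 (−2.16), Map2 (−1.36) and Tubb3 (−0.82). The calls of T and Tubb3 were lost after quantile normalization, and that of Tubb3 also with total-read scaling. Of 10 germline genes 2 rose, Taf7l (1.28) and Tdrd1 (1.02), and both calls were lost after quantile normalization, when 2 other genes of the list were called lower.

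Genes of the 2-cell-like state, which a small share of ES cells enters, were mostly higher at 8 h, with 8 of 10 up and 1 down and a median of 1.48. Zscan4d, of a telomere-associated family, stood at 39.2, 34.9 and 39.9 CPM at 8 h and 12.3, 11.2 and 14.1 CPM at 0 h (1.57 ± 0.092). Tcstv1 stood at 6.895, 5.33 and 7.82 CPM at 8 h and 1.097, 1.23 and 1.46 CPM at 0 h (2.11 ± 0.16). All 8 h libraries of both lay above all 0 h libraries. Usp17la (1.796) and Tcstv3 (1.77) changed by a similar amount, and Zfp352 was not called (0.26). Dppa2, which the list holds as an upstream activator, fell to 60.8, 49.7 and 48.8 CPM at 8 h, against 158, 156 and 165 CPM at 0 h (−1.59 ± 0.071). With Dppa2 included, the summed level of the list was 189 to 223 CPM at 8 h and 205 to 223 CPM at 0 h. Zscan4, Tcstv and Usp17l genes have near-identical copies that share reads. The markers of fibroblasts or feeder cells were checked in the same libraries: 4 of the 6 tested rose, none fell, and Col3a1, Dcn and Lum were too low to be tested. Their summed level was 37.3 to 39.5 CPM at 8 h and 20.02 to 23.7 CPM at 0 h, and Col1a1, a fibrillar collagen, stood at 11.9, 12.4 and 13.4 CPM at 8 h and 0.798, 0.785 and 0.817 CPM at 0 h (3.48 ± 0.15). The other rises were Col6a3 (2.09), Col1a2 (1.37) and Pdgfrb (0.796), and the calls of Col1a2 and Pdgfrb were lost after quantile normalization.

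Genes that drive the cell cycle were lower in part, and CDK inhibitors moved in both directions. Of 14 CDK inhibitors, G1 cyclins and kinases 7 fell and 2 rose, with a median of −0.98. Ccnd1, cyclin D1, stood at 35.8, 36.1 and 39.6 CPM at 8 h and 200.4, 208 and 193 CPM at 0 h (−2.42 ± 0.070), and Ccne1, cyclin E1, at 86.9, 81.3 and 87.8 CPM and 363, 364 and 378 CPM (−2.11 ± 0.064). Every 8 h library was below every 0 h library for both genes, and Ccnd1 shares exon sequence with an antisense gene. Cdk6 (−2.43) and Ccnd2 (−2.41) also fell. The rises were Cdkn2b, the inhibitor p15 of CDK4 and CDK6, at 19.1, 16.3 and 16.3 CPM at 8 h and 2.04, 2.85 and 2.92 CPM at 0 h (2.58 ± 0.13), and Cdkn1c, the inhibitor p57 (0.78), whereas Cdkn1b, the inhibitor p27, fell (−1.73). In mitosis genes 16 of 32 fell and none rose, with a median of −0.79. Plk1, the kinase that starts mitosis, stood at 19.9, 19.1 and 21.8 CPM at 8 h and 105, 120.2 and 99.5 CPM at 0 h (−2.39 ± 0.078), and Aurka, a spindle kinase, at 57.5, 55.9 and 58.2 CPM and 215, 216 and 228 CPM (−1.94 ± 0.067). Nusap1 (−1.98), Ect2 (−1.62) and Tpx2 (−1.505) followed.

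DNA replication genes fell in 13 of 32 cases and rose in 1, with a median of −0.62. Cdt1, which loads the replicative helicase (−1.51), Mcm10 (−1.37) and Pold1 (−1.25) were the largest falls, and the rise was E2f1, a transcription factor of S-phase genes, at 40.7, 37.4 and 41.5 CPM at 8 h and 17.4, 19.3 and 19.4 CPM at 0 h (1.08 ± 0.086). The number of falls was 3 after quantile normalization and 3 with total-read scaling, and for mitosis it was 9 and 11, with 25 after median centring. Of 16 recombination and checkpoint genes 6 fell, including Wee1 (−1.55) and Brca1 (−1.302), and 3 and 2 did so under these scalings. The shares that fell were 40.6% for replication, 50% for mitosis and 37.5% for recombination. Their summed levels at 0 h were 8559, 8635 and 2534 CPM over 32, 32 and 16 genes. Of all tested genes at 100 to 200 CPM and 200 to 500 CPM at 0 h, 33.3% and 45.1% fell, with medians of −0.51 and −0.68. Nearly all replication-dependent histone genes were lower: 57 of 59 fell and none rose, with a median of −1.903. Their summed level was 4141 to 4583 CPM at 8 h and 13524 to 19224 CPM at 0 h. The linker histone H1f3 stood at 99.2, 96.3 and 106 CPM at 8 h and 867, 957 and 714 CPM at 0 h (−3.06 ± 0.072). The libraries were made from total RNA, not selected for poly(A) tails, and histone copies share reads. No measure of cell cycle phase other than these transcripts is in the libraries.

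Genes of growth and RNA processing were lower in part. Of 27 ribosome biogenesis genes 12 fell and none rose, with a median of −0.72, and 8 fell after quantile normalization (median −0.32) and 19 after median centring. Of all tested genes at 200 to 500 CPM and above 500 CPM at 0 h, 45.1% and 44.7% fell, beside 44.4% of this list. Nop58, of the box C/D particles, stood at 262, 230.0 and 232 CPM at 8 h and 789, 756 and 752 CPM at 0 h (−1.67 ± 0.060), and Dkc1 (−1.62) and Nop56 (−1.56), also small nucleolar particle proteins, changed alike in size. Of 12 SR splicing factors 8 fell, with a median of −1.06, and 5 fell after quantile normalization (median −0.602). Srsf3 stood at 182, 153 and 165 CPM at 8 h and 626, 561 and 634 CPM at 0 h (−1.86 ± 0.063), and Srsf1 at 298, 275 and 276 CPM and 967, 890.3 and 941 CPM (−1.72 ± 0.059). Of 18 cholesterol synthesis genes 7 fell, among them Sqle, an oxidizing enzyme of the pathway (−1.39), and none rose. The falls were 11 after median centring and 3 with total-read scaling. The summed level of the list was 1909 CPM at 0 h. Of all tested genes at 100 to 200 CPM at 0 h, 33.3% fell, beside 38.9% of this list. Among heat shock genes 3 of 11 rose and 3 fell. Hspa8, the constitutive HSC70, fell to 876, 875 and 907 CPM at 8 h, against 2668, 2581 and 2799.5 CPM at 0 h (−1.598 ± 0.055), while the inducible Hspa1a (2.29) and Hspa1b (1.63), near-identical copies, and Dnajb1 (0.81) rose. In the ATF4 and unfolded protein list 5 of 15 fell and 2 rose, Trib3 (1.36) and Chac1 (0.85), and Xbp1 had the largest change (−2.5001). The median was −0.32, and after quantile normalization it was 0.025, with 2 genes lower.

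Regulators of chromatin were lower in part, while Tet3 and Trim66 rose. Of 15 DNA methylation and Polycomb genes 9 fell and 1 rose, with a median of −1.04. The falls were 6 after quantile normalization (median −0.65) and 12 after median centring. The summed level of the list was 5168 CPM at 0 h. Of all tested genes at 200 to 500 CPM at 0 h, 45.1% fell, beside 60% of this list. Tet2, an enzyme that oxidizes methylated cytosine, stood at 35.3, 35.8 and 33.8 CPM at 8 h and 278, 285 and 289 CPM at 0 h (−3.01 ± 0.068), and its relative Tet3 stood at 19.1, 22.3 and 21.2 CPM and 3.79, 3.24 and 3.33 CPM (2.48 ± 0.12). The Polycomb partners Jarid2 (−2.12) and Mtf2 (−1.77) and the cofactor Dnmt3l (−2.06) fell. In the TIF1 family, to which Trim24 belongs, Trim28 (−1.44) and Trim33 (−1.58) fell as Trim24 did. Trim66 rose, at 19.3, 18.3 and 21.8 CPM at 8 h and 1.25, 1.03 and 0.759 CPM at 0 h (3.89 ± 0.14).

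The shares of immune genes that rose were close to the 27% over all genes tested, at 25% for the interferon response, 25% for antigen processing and 30.8% for the NF-kB response. Of 16 interferon response genes 4 rose and 5 fell, and the median of −0.102 was above 0 with total-read scaling. After quantile normalization 8 fell, with a median of −0.638. Ddx58, the RNA sensor RIG-I, stood at 5.99, 4.43 and 5.197 CPM at 8 h and 98.7, 94.2 and 94.6 CPM at 0 h (−4.12 ± 0.091). Among the rises were Usp18 (3.97), which dampens the interferon receptor, the chemokine gene Cxcl10 (3.85) and Stat2 (0.899), a signal transducer of that receptor. In antigen processing 3 of 12 rose and 1 fell. Tap1, a peptide transporter, stood at 151, 138 and 166 CPM at 8 h and 5.53, 4.56 and 5.02 CPM at 0 h (4.81 ± 0.086), and its neighbour Psmb9, with which it shares antisense exon sequence, rose by 2.503, while Tap2 rose by 2.27 and Psmb10 fell (−0.91), though not with total-read scaling. Of 13 NF-kB response genes 4 rose, Traf1 (2.27), Nfkb2 (1.695), Cxcl1 (1.56) and Ptgs2, and 1 fell, Birc3 (−1.71). Ptgs2, which encodes the inflammatory cyclooxygenase COX2, stood at 6.84, 5.85 and 5.399 CPM at 8 h and 2.59, 2.698 and 2.04 CPM at 0 h (1.19 ± 0.15). Its groups did not overlap, and its call was lost after quantile normalization. Rgcc, a regulator of the cell cycle, stood at 4.06, 3.87 and 3.73 CPM at 8 h and 0.249, 0.343 and 0.292 CPM at 0 h (2.703 ± 0.19). Tnfaip3, the NF-kB inhibitor A20, stood at 3.47, 2.69 and 4.09 CPM at 8 h and 2.69, 2.21 and 2.57 CPM at 0 h, and the groups overlapped. Its log2 difference of 0.39 ± 0.16 was not called (limma, adjusted p = 0.0237) and was below 0 after quantile normalization.

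Several large groups of widely expressed genes showed small differences. Of 86 cytosolic ribosomal protein genes 4 fell and none rose, with a median of −0.23, which was 0.245 after quantile normalization and 0.09 with total-read scaling. The 4 were Rpl7l1 (−1.72), Rpl10l (−1.12), Rpl13a (−0.78) and Rpl22l1 (−0.76), of which Rpl7l1, Rpl10l and Rpl22l1 are paralogues of the canonical genes. None of 75 nuclear genes of oxidative phosphorylation was called by limma. Before adjustment 12 were higher and 28 lower at p under 0.05, and the median log2 difference of −0.046 was 0.278 after quantile normalization and 0.27 with total-read scaling, when 4 and 3 of them were called higher. All 13 mitochondrially encoded messages had a log2 difference above 0, with a median of 0.46, and 1 of them was called, mt-Nd6 (0.98). Under quantile normalization and total-read scaling 7 were called higher. Of 12 housekeeping genes 3 fell and 1 rose: Tubb5 (−1.19), Tfrc (−1.01) and Gapdh (−0.995) were lower and Gusb (1.103) was higher. The calls of Tfrc, Gapdh, Rpl13a and Rpl22l1 were lost after quantile normalization and with total-read scaling. Actb, beta-actin, stood at 3181, 3267 and 3514 CPM at 8 h and 4050.0, 4048 and 3920.1 CPM at 0 h, a difference of −0.27 ± 0.052 under the fold threshold.

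The 8 h libraries were then set beside those at 4 and 12 h of activation with Trim24 present. These comparisons share the 8 h libraries, so values are given side by side and no agreement between them is counted. At 8 h against 4 h, 4019 of 16522 genes were called (24.3%), 2747 higher at 8 h (16.6%) and 1272 lower (7.7%), a split of 68.4% rises that was 53.6% after quantile normalization (1845 and 1597), 51.8% after median centring (2117 and 1973) and 86.0% with total-read scaling (3739 and 608). At 12 h against 8 h, 1083 of 16876 genes were called (6.42%), 705 higher at 12 h (4.18%) and 378 lower (2.24%).

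The increases of Mdm2, Ccng1 and Cdkn1a came before 4 h. Mdm2 had means of 181, 564, 966, 947 and 1167 CPM at 0, 2, 4, 8 and 12 h, and Ccng1 482, 1096, 1733, 1648 and 1654 CPM. Cdkn1a had 22.5, 72.1, 75.9, 61.4 and 73.2 CPM. At 8 h against 4 h none of these 3 genes was called (log2 differences of −0.029, −0.073 and −0.31), nor at 12 h against 8 h (0.302, 0.0061 and 0.25). Fas also rose between 4 and 8 h, with means of 0.537, 2.44, 12.7, 37.4 and 55.6 CPM (1.55 ± 0.089 at 8 h against 4 h), and so did Pmaip1 (0.86 ± 0.061). Fas and Pmaip1 did not pass the fold threshold at 12 h against 8 h (0.57 and 0.56).

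Sbsn, the largest increase at 8 h, had 0.410, 3.14, 16.7, 70.3 and 149 CPM at 0, 2, 4, 8 and 12 h and was called higher in both later steps (2.05 ± 0.081 and 1.08 ± 0.078). The largest increases at 8 h against 4 h among genes of at least 5 CPM were those of Nos2, the inducible nitric oxide synthase (3.47 ± 0.15, 14.2 ± 1.27 CPM at 8 h and 0.962 ± 0.195 CPM at 4 h), the gut hormone receptor Glp2r (3.28), Tmem92 (3.23), the anion transporter Slco2b1 (3.16), the matrix protein gene Thbs2 (3.15) and Matn4 (3.11). The largest decreases were those of Nanog (−3.16 ± 0.072, 21.3 ± 1.07 CPM at 8 h and 193 ± 4.59 CPM at 4 h), Emp1 (−3.14), Mras (−3.07), Serpinb9b (−3.05), Nr5a2 (−3.03) and Ddx58 (−3.03). Nanog had 628, 444, 193, 21.3 and 8.32 CPM over the 5 times, and its mean was lower at each time than at the time before.

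Genes of the 2-cell-like state were higher again at 12 h. Zscan4d had 12.6, 11.8, 14.3, 37.99 and 215 CPM at 0, 2, 4, 8 and 12 h, and the summed level of the 10 genes was 1153 ± 70.6 CPM at 12 h and 205 ± 16.95 CPM at 8 h. The largest increases at 12 h against 8 h were those of Tdpoz3 (4.35 ± 0.11, 51.6 ± 5.01 CPM at 12 h and 2.19 ± 0.164 CPM at 8 h), Tcstv1 (3.69), Spopfm1 (3.68), Zfp352 (3.67), AF067061 (3.56) and Trim75 (3.55). Zfp352, at 1.11 CPM at 8 h and 0.855 CPM at 0 h, had 18.1 CPM at 12 h. The largest decreases were those of Lin28a (−1.998 ± 0.091, 14.2 ± 1.405 CPM at 12 h and 57.8 ± 0.200 CPM at 8 h), Tcl1 (−1.94), Trh (−1.83), Slc7a3 (−1.76), Gdf3 (−1.75) and Rasgrp2 (−1.75), of which Lin28a, Tcl1 and Gdf3 are markers of pluripotent cells. Trp53 had 292, 297, 259, 138 and 90.8 CPM over the 5 times and Trim24 211, 186, 120.5, 67.2 and 69.7 CPM. Both were called lower at 8 h against 4 h (−0.91 and −0.84) and were not called at 12 h against 8 h.

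**Figure D5:**
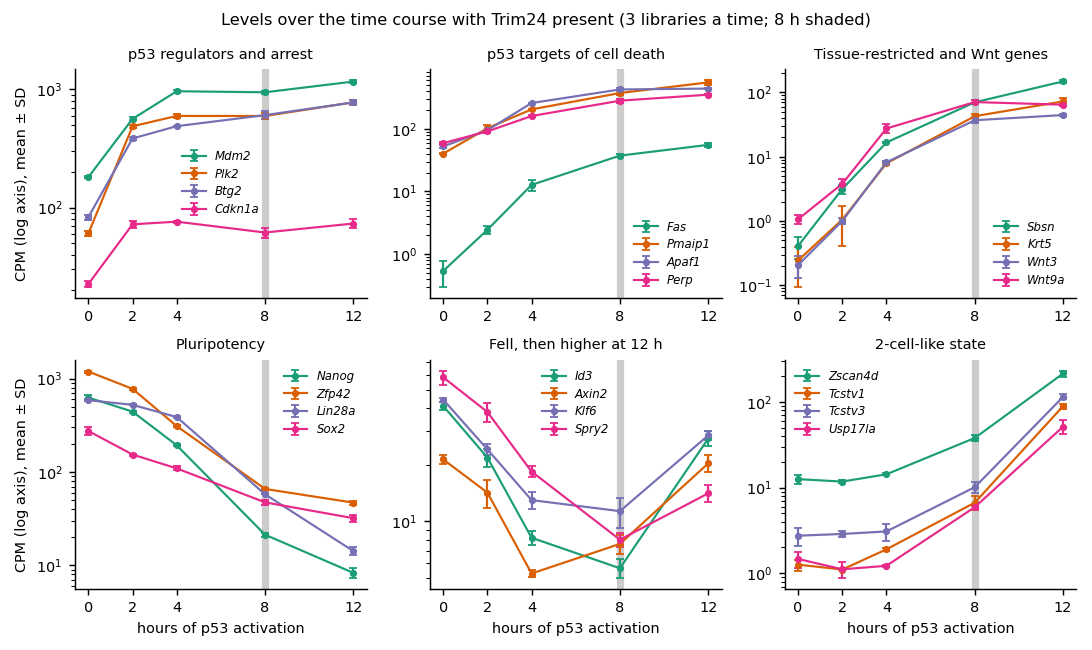
Mean level with SD (y axes, CPM on log axes; 3 libraries a time) of 24 genes at 0, 2, 4, 8 and 12 h of p53 activation with Trim24 present (x axes, hours), with 8 h shaded. Mdm2 is at 947 CPM at 8 h and 966 CPM at 4 h, Nanog falls at each step, and the 2-cell-like genes have their largest step between 8 and 12 h.

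Gene length was set beside the change at 8 h. Among genes of at least 10 CPM at 0 h, the median log2 fold change lay between −0.35 and −0.27 in all 6 classes of genomic length, from under 5 kb to over 200 kb. The share of them that rose was 7.48% under 5 kb and 13.2% at 100 to 200 kb, and the share that fell lay between 24.4% and 28.0%. Over all genes it was −0.01 for genes under 5 kb and 0.34 for those over 200 kb, whose median level at 0 h was 3.14 CPM. Of the 577 genes tested on the X chromosome, 14.9% rose and 22.4% fell, with a median of −0.22. Of 486 single-exon genes 32.7% rose and 14.6% fell, and over all genes tested 27% rose and 18.3% fell. These shares are descriptions and were not tested. Of the genes named here, Aldh4a1, Cxcl10, Dkc1, Dnmt3l, Gapdh, Mtf2, Neurod1, Nfkb2, Nusap1 and Rpl13a also share exon sequence with other coding genes. So do Glp2r, Hspa1a, Nop56 and mt-Nd6, and for all of them reads on the shared sequence cannot be told apart from those of the neighbours.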

How the data were processed

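Total RNA of mouse ES cells was sequenced after a stranded total RNA library preparation. Per the labels and the study's methods, bcl2fastq (2.17 or 2.20) was used for demultiplexing and STAR for alignment to mm10. The authors placed reads with several matches at random, used featureCounts to count reads per protein-coding gene, and normalized the counts with edgeR (TMM). The deposited values are log2 CPM with a prior count of 8, whose floor of −1.48 stands for 0 reads. Whole reads per gene were recovered from these values (100% whole within 0.01 of a read) and gave the CPM printed here, without the prior count. No column of the table lacked a sample. The other deposited tables were not used here, and a few named genes are not reported here.

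Differences were tested with limma 3.58.1 in R 4.3.3 on the deposited log2 CPM (linear model, empirical Bayes with trend and robust settings, Benjamini-Hochberg adjustment), within the 6 libraries compared. A gene was tested when at least 3 libraries lay more than 0.5 above the floor, and called by the adjusted p and fold thresholds given above. Log2 fold changes carry the prior count, understate the change of low genes, and are followed by ± their SE where one is given. The fit was checked on simulated data. The study's methods call the replicates biological, without saying how far their cultures were separate, and p-values measure only the spread between these libraries.

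Named genes were the 20 largest increases and 12 largest decreases among called genes of at least 5 CPM in the higher group without overlap. From each list, up to 5 tested genes were taken by absolute change, whether called or not. The 6 largest in each direction at the other steps and genes the study names were added. Others were named to complete short counts and were chosen after their values were seen. Members and lists were chosen with earlier results of these data known. Gene positions are from GENCODE M21 on GRCm38, with 16221 (98.3%) of tested genes matched. Promoters are from RefSeq (GRCm38.p6). Only 13017 (78.9%) of tested genes had a promoter sequence, so a comparison of promoter shares between genes that rose and fell was void. Alternatives changed the test, normalization, prior count, filter, threshold, samples in the fit, replicate block and replicates. Total-read scaling, a filter of at least 1 CPM and the lists without replicate 2 at 8 h were added after seeing the data.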

Additional observations from a re-analysis of the deposited data

Results flagged for a closer look

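In 6 named genes that fell at 8 h against 0 h, the next step was called in the opposite direction by limma. They were picked out for this reversal, and its share among all genes that fell at 8 h was not taken. Over all genes tested at 12 h against 8 h, 4.18% were called higher. At 12 h against 8 h the log2 difference was 2.22 for Id3, 1.38 for Axin2, 1.32 for Klf6, 1.07 for Foxa2, 0.79 for Spry2 and 0.75 for Dusp4. Id3, a BMP target, stood at 24.98, 27.5 and 30.1 CPM at 12 h and 4.92, 5.94 and 6.105 CPM at 8 h, after 41.3, 42.8 and 38.7 CPM at 0 h. Axin2, a Wnt target, stood at 18.03, 20.8 and 22.1 CPM at 12 h and 6.895, 7.31 and 8.63 CPM at 8 h, after 21.2, 22.6 and 20.1 CPM at 0 h. The 12 h libraries of both genes were all above the 8 h libraries. Both steps use the 8 h libraries, so a low value there moves both the fall and the rise, and the difference between the steps was not tested on its own.

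Olfactory receptor genes, which belong to none of the gene lists, had summed levels of 131, 212 and 144 CPM in replicates 1, 2 and 3 at 8 h, above the 74.8 to 80.6 CPM of the 0 h libraries. The sums were 81.2 to 86.6 CPM at 2 h, 91.7 to 103 CPM at 4 h and 166 to 205 CPM at 12 h. Of 97 olfactory receptor genes that could be tested at 8 h against 0 h, 32 rose and 10 fell, shares of 33.0% and 10.3% beside 27% and 18.3% over all genes tested. Of all tested genes under 0.5 CPM at 0 h, 57.8% rose.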

How the results depend on the processing

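The count of calls at 8 h against 0 h was 7913 with voom on the recovered reads (4762 rose, 3151 fell), 7460 without a filter, 6850 with a stricter filter, 7839 with a prior count of 1, 7387 without trend and robust settings, 7464 with all groups in the fit and 6737 with only genes of at least 1 CPM in the higher group, against 7468. Without the fold threshold, at an adjusted p under 0.05, 13321 genes were called at 8 h against 0 h (6728 rose, 6593 fell), 11391 at 8 h against 4 h (5924 rose, 5467 fell) and 6967 at 12 h against 8 h (3646 rose, 3321 fell). Scaling by total reads, an alternative chosen after seeing the data, left 1733 falls at 8 h against 0 h and 608 at 8 h against 4 h, and median centring gave 1973 falls at 8 h against 4 h. At 12 h against 8 h the share of calls that rose was 65.1%, and 58.8% to 66.4% under the other scalings. Leaving out each replicate in turn gave 7329 to 7579 calls at 8 h against 0 h (4430 to 4499 rose, 2884 to 3107 fell), 3937 to 4188 at 8 h against 4 h and 1041 to 1160 at 12 h against 8 h. With the replicate number as a block, 7467 genes were called at 8 h against 0 h (4454 rose, 3013 fell), 4020 at 8 h against 4 h and 1066 at 12 h against 8 h. Deviations of same-numbered libraries at 8 h and 0 h correlated by 0.05, −0.0048 and −0.06, so the numbers were not taken as pairs. Of 224 named genes called, 193 kept their call under all 18 alternatives. Quantile normalization lost 23 of these calls and total-read scaling 18, while median centring lost Sfn and Pdgfrb. Without replicate 2 at 8 h Rpl13a was not called, without replicate 3 at 8 h or replicate 1 at 0 h Rpl22l1 was not, and without replicate 2 at 0 h Pdgfrb was not. After quantile normalization, Tnfaip3 at 8 h against 0 h was at −0.35, Postn at 8 h against 0 h at −0.26 and Zfp352 at 8 h against 0 h at −0.57, where the log2 difference was above 0 with TMM, and the cause was not tested. With 16684808 to 21852262 reads a library over genes, differences among genes under 1 CPM rest on few reads and are the least precise.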
